A study of Mus musculus with 8 samples.

Results

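Preantral follicles that came from transplanted female germline stem cells (FGSCs) were compared with preantral follicles of wild type mice by RNA sequencing of single follicles. The libraries were chosen by their labels: those labelled preantral, 2 per source, which is 4 of the 8 libraries of the series. Each library is 1 follicle from the ovary of a C57BL/6 mouse, freed with a needle, and its polyadenylated RNA was copied by a SMARTer low-input protocol. The group PF-TF holds the 2 preantral follicles from transplanted FGSCs and the group PF-WT the 2 from wild type mice. The other 4 libraries are small antral follicles of the same sources, SAF-TF and SAF-WT with 2 follicles each, and they entered the fit to estimate the spread between follicles and to set the preantral difference beside the later stage. The sources used here do not give the age of the mice, the host ovary and its preparation, the origin of the transplanted cells, or which cells of a PF-TF follicle derive from them. Whether 1 mouse or more supplied each group is also not stated there, and p-values therefore refer to the spread among these follicles, which may be technical. TF and WT libraries stand in 1 deposited table each, so source and table cannot be told apart.

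A preantral follicle is a growing oocyte wrapped in layers of granulosa cells, with a theca layer forming outside the basement membrane, before the fluid-filled antrum opens. The oocyte builds its zona pellucida and stores proteins and mRNAs for the early embryo, and it signals to the granulosa cells through GDF9 and BMP15. Granulosa cells feed the oocyte through gap junctions, make anti-Müllerian hormone and inhibins, and carry the receptor for follicle-stimulating hormone. FGSCs are mitotic germ cells isolated from postnatal ovaries, and after transplantation they have been described to form oocytes that are enclosed by somatic cells of the recipient. A follicle library therefore mixes oocyte, granulosa and surrounding tissue RNA, and in such bulk samples fewer cells of a type and less RNA per cell cannot be told apart.

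Total counts of the preantral libraries ran from 7656108 to 9292314, and 18796 to 20694 genes had at least 1 count. Values below are normalised read counts in CPM (counts scaled to a common library size with TMM factors), always replicate 1 before replicate 2 with n = 2 per group, and a count of 0 allows up to 0.301 to 0.394 CPM depending on the library (3 counts). That floor, like the counting intervals below, reflects counting error alone, because copies made by PCR were not marked by molecular identifiers. Log2 fold changes are PF-TF over PF-WT with their standard error, and adjusted p-values come from the edgeR quasi-likelihood test over 17925 genes. All 4 preantral libraries held oocyte and granulosa RNA, as their label says. The 14 oocyte markers summed to 10041 and 8254 CPM in PF-WT and 19803 and 16732 CPM in PF-TF, and the 11 granulosa markers to 2094 and 3106 CPM in PF-WT and 3714 and 3683 CPM in PF-TF. Between replicates, 17.1% of genes in PF-WT and 15.9% in PF-TF differed by more than 2-fold, so single pairs of follicles already varied widely.

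Between PF-TF and PF-WT, 39 of 17925 genes passed an adjusted p of 0.05, which is 0.218% of the genes tested. Of these, 12 were higher in PF-TF (0.0669%) and 27 were lower (0.151%). The germ cell transcription factor gene Pou5f1, a non-classical MHC class I gene, a glutathione peroxidase gene and the growth factor gene Mdk were among the higher genes. Among the lower were genes abundant in fat cells, the matrix protein genes Spp1 and Mfap5, Pparg, Fos and Ctgf. In each of the 39 the 2 PF-TF libraries lay entirely above or below the 2 PF-WT libraries, and each differed by more than 2-fold. A wider group of 3719 genes (20.7%) had an unadjusted p under 0.05, 1342 higher (7.49%) and 2377 lower (13.3%). Of these 3719 genes, 61 overlapped between sources, so the separation of the 39 came largely with their small p-values. Here and below, groups of 2 that do not overlap describe the values and add no support beyond the test. The share without overlap over all genes was not counted. DESeq2 on the same counts called 316 genes higher (1.83%) and 965 lower (5.6%), all 39 among its 1281 calls (7.44%). The median log2 fold change over all genes was -0.03. Counts for the gene lists below are to be read against these shares of all genes.

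**Figure D1:**
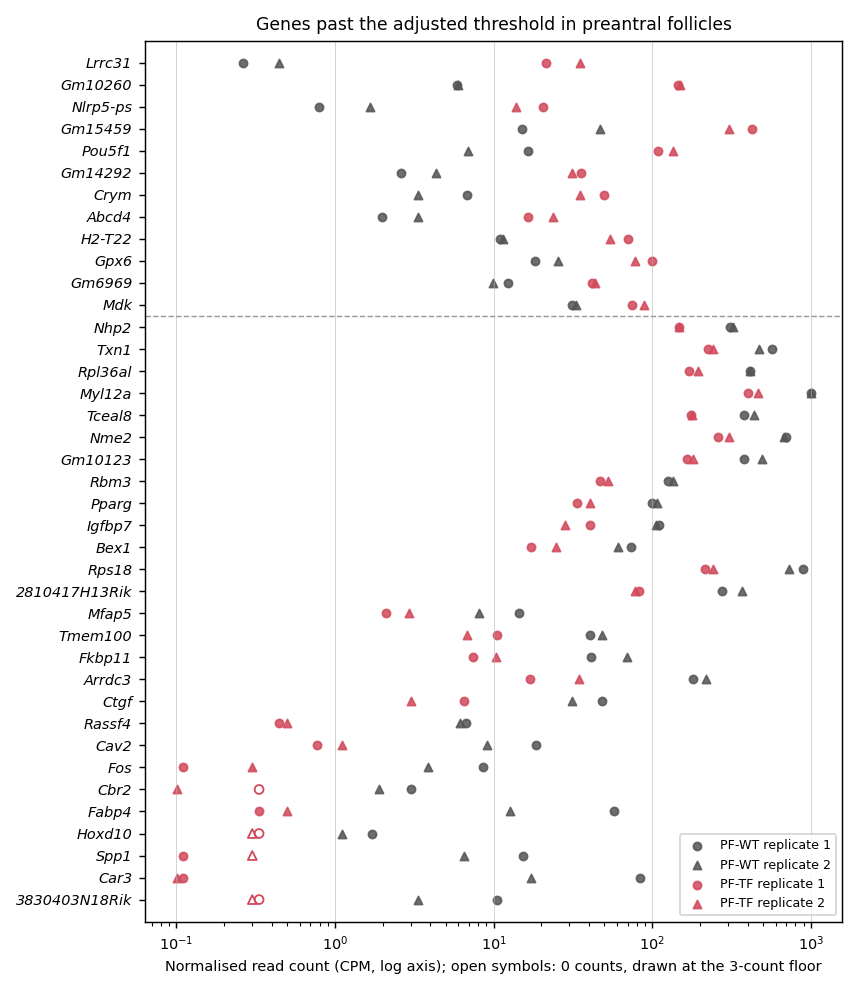
Normalised read counts (CPM, log axis) of the 39 genes past the adjusted threshold in the 4 preantral libraries, ordered by log2 fold change; circles are replicate 1 and triangles replicate 2, grey PF-WT and red PF-TF. Open symbols are libraries with 0 counts drawn at the 3-count floor, and the dashed line parts the 12 higher from the 27 lower genes.

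The number of genes called depended on single libraries. The direction of the 39 could hardly turn when 1 library was left out, since their PF-TF and PF-WT values did not overlap. Without PF-TF replicate 1 the test called 1 gene higher and 0 lower (edgeR, with 2109 genes at an unadjusted p under 0.05), and without PF-WT replicate 2 it called 231 higher and 634 lower. Without PF-WT replicate 1 it called 2 and 4, and without PF-TF replicate 2, 8 and 37. Leaving out a small antral library, which enters only through the spread, gave 1 and 0 without SAF-WT replicate 1 (3377 genes at an unadjusted p under 0.05), 3 and 5 without SAF-WT replicate 2, 5 and 11 without SAF-TF replicate 1, and 3 and 8 without SAF-TF replicate 2. In all of these fits each of the 39 genes kept its direction, and Gm10260 alone stayed past the threshold in each of the 16 alternatives counted here.

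**Figure D2:**
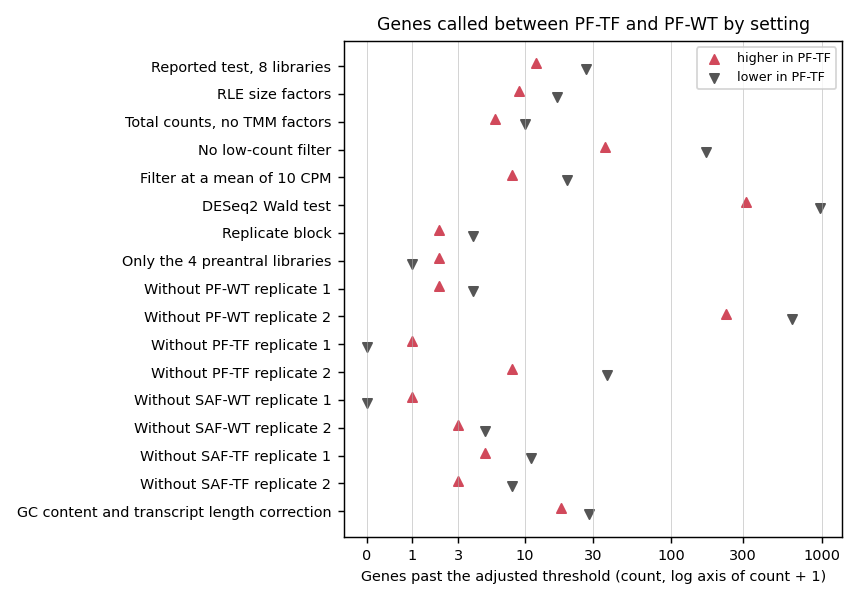
Number of genes past the adjusted threshold (log axis of count + 1) between PF-TF and PF-WT under the reported test and each alternative, with upward triangles for genes higher and downward triangles for genes lower in PF-TF. The counts run from 1 higher and 0 lower without PF-TF replicate 1 to 316 higher and 965 lower with DESeq2.

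Pou5f1 encodes OCT4, the POU-domain factor of germ cells and pluripotent cells that growing oocytes also express. Pou5f1 was at 16.5 and 6.88 CPM in PF-WT and 109 and 135 CPM in PF-TF. Both PF-TF follicles lay far above both PF-WT follicles, and the log2 fold change was 3.38 ± 0.54 (adjusted p = 0.0499). In small antral follicles the gene was low, at 0.688 and 2.73 CPM (SAF-WT) against 9.35 and 5.41 CPM (SAF-TF), with a log2 fold change of 2.11 ± 0.61 (adjusted p = 0.0576). Because Pou5f1 is the germ cell regulator among the higher genes, the 250 bases before its start in RefSeq are shown (GRCm38.p6, chr17:35505782-35506031, plus strand). Capitals mark AGGTCAAGG, a run of letters built on the nuclear receptor motif AGGTCA, searched on both strands.
Pou5f1 promoter: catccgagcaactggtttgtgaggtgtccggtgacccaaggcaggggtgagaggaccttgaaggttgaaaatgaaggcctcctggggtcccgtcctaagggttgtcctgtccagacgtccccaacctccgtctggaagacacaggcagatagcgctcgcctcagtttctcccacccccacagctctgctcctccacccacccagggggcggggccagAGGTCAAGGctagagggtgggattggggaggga
Of 32851 promoter windows of the same length, 87 hold these letters (0.265%), and the other Pou5f1 start in the table does not. The letters were set by hand as 1 exact string, and shares for other strings of that length were not counted. The match therefore does not show a regulatory site. Binding, and any part of the site or of the receptors below in the Pou5f1 difference, was not tested. Of the orphan receptors that can read such sites, Nr5a1 was at 11.4 and 15.1 CPM in PF-WT and 13.5 and 11.9 CPM in PF-TF and Nr5a2 at 191 and 138 CPM in PF-WT and 127 and 227 CPM in PF-TF, with overlapping groups for both. Nr2f2, which encodes COUP-TFII, was at 39.1 and 22.1 CPM in PF-WT and 10.5 and 16.6 CPM in PF-TF (-1.17 ± 0.33, adjusted p = 0.0961), lower in each PF-TF follicle but not past the threshold. Its relative Nr2f1 was near the floor in PF-WT, at 0.131 and 0.222 CPM in PF-WT and 2.77 and 1.71 CPM in PF-TF (adjusted p = 0.07302).

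Pou5f1 belongs to a list of 16 tested germline and pluripotency genes, of which it alone was called. At an unadjusted p under 0.05, 5 of the 16 were higher and 3 lower. Their median log2 fold change was 0.07, so the list had no common direction. Ddx4, which encodes the germ cell RNA helicase VASA, was at 13.8 and 35.6 CPM in PF-WT and 191 and 139 CPM in PF-TF (2.74 ± 0.51, adjusted p = 0.05796). Both PF-TF values lay above both PF-WT values, short of the threshold. Dppa5a, an RNA-binding protein gene of oocytes and embryonic stem cells, was at 234 and 303 CPM in PF-WT and 834 and 704 CPM in PF-TF (adjusted p = 0.124). Dppa3, a maternal-effect gene, was at 2162 and 1228 CPM in PF-WT and 1706 and 1736 CPM in PF-TF with overlapping groups and a log2 fold change of 0.02 ± 0.46.

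The gene with the largest upward change was Lrrc31, a leucine-rich repeat gene. It was at 0.263 and 0.444 CPM in PF-WT and 21.3 and 35.1 CPM in PF-TF, which is at about the floor in PF-WT and above 20 CPM in both PF-TF follicles (6.24 ± 0.87, adjusted p = 0.0416). Crym encodes mu-crystallin, a thyroid hormone binding protein. It was at 6.83 and 3.33 CPM in PF-WT and 49.5 and 35.3 CPM in PF-TF, with no overlap (3.07 ± 0.48, adjusted p = 0.0489). Gpx6 encodes a glutathione peroxidase, an enzyme class that reduces peroxides. It was at 18.3 and 25.6 CPM in PF-WT and 99.3 and 78.3 CPM in PF-TF, again with both PF-TF follicles on top (2.01 ± 0.31, adjusted p = 0.0489). In small antral follicles Gpx6 stayed under 1 CPM in all 4 libraries.

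Abcd4 encodes a transporter of the lysosomal membrane needed for vitamin B12 release. It was at 1.97 and 3.33 CPM in PF-WT and 16.4 and 23.7 CPM in PF-TF (2.90 ± 0.46, adjusted p = 0.0499), and both PF-TF follicles lay above both PF-WT follicles. The Abcd4 difference was close to 0 in small antral follicles (-0.15 ± 0.46, adjusted p = 0.859), though the test between stages did not pass the threshold (adjusted p = 0.0646). Mdk encodes midkine, a heparin-binding growth factor of granulosa cells and embryonic tissue. Mdk was at 31.4 and 32.96 CPM in PF-WT and 75.1 and 89.2 CPM in PF-TF, and its replicates lay close together in both groups (1.35 ± 0.20, adjusted p = 0.0475). H2-T22, a non-classical MHC class I gene, was at 11.03 and 11.4 CPM in PF-WT and 69.997 and 54.6 CPM in PF-TF (2.47 ± 0.27, adjusted p = 0.0212), with both PF-TF values above both PF-WT values.

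H2-T22 was the only call in its class. Of 15 tested MHC class I and peptide loading genes, 2 were higher and 3 lower at an unadjusted p under 0.05 (all genes: 7.49% and 13.3%). Their median was -0.27 (0.10 without PF-TF replicate 1). B2m, the invariant light chain, was at 812 and 466 CPM in PF-WT and 254 and 314 CPM in PF-TF (adjusted p = 0.07204). H2-Q7 had 0 counts in both PF-TF libraries against 4.73 and 2.55 CPM in PF-WT, at least 11.5-fold lower against the floor of 3 counts per library (adjusted p = 0.05796). H2-T10, a near-identical relative of H2-T22, was at 27.97 and 21.4 CPM in PF-WT and 25.03 and 26.99 CPM in PF-TF, with overlapping groups. H2-T22 and H2-T10 transcripts were 96.97% identical over 859 aligned bases, so the split of reads between them is uncertain. The H2-T22 share of their summed CPM was 28.3 and 34.8% in PF-WT and 73.7 and 66.9% in PF-TF, and 95.7 and 93.3% (SAF-WT) and 94.5 and 96.1% (SAF-TF).

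A further 5 of the 12 higher genes are copies of other genes, and the 4 whose symbols start with Gm are named here after their values were seen. Gm10260 is a gene on chromosome 13 without introns (chr13:97760072-97760632, GRCm38) whose transcript is 99.1% identical over 545 bases to that of Rps18 on chromosome 17, which encodes a protein of the small ribosomal subunit. The differences that part the pair are shown over the 100 bases of the Rps18 coding sequence that hold most of them, since reads must cross them to be told apart. Capitals mark the bases that differ.
Rps18: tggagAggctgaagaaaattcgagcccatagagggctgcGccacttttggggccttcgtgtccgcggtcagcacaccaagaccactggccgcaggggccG
Gm10260: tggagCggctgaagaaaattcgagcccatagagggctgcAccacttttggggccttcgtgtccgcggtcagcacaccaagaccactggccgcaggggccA
Counted from 1 at the first base of the Rps18 coding sequence and written from Rps18 to Gm10260, they are A337C, G371A and G431A, and the whole alignment holds 5 mismatches. Gm10260 was at 5.91 and 5.99 CPM in PF-WT and 145 and 149.6 CPM in PF-TF (4.63 ± 0.27, adjusted p = 2.37e-04), the smallest p of all genes. Rps18 moved the other way, at 888 and 729 CPM in PF-WT and 215 and 242 CPM in PF-TF (-1.82 ± 0.20, adjusted p = 0.0212). Their sum was 894 and 735 CPM in PF-WT and 359.95 and 392 CPM in PF-TF. The share of Gm10260 in that sum was 0.661 and 0.816% in PF-WT and 40.4 and 38.2% in PF-TF, and at the later stage 0.865 and 0.7805% (SAF-WT) and 35.4 and 38.9% (SAF-TF). The share thus followed source, and with it the deposited table, in all 8 libraries.

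Gm15459 on chromosome 5 is a processed pseudogene of Hspa8, which encodes the constitutive heat shock chaperone HSC70, with 5 mismatches over 1941 bases. It was at 15.1 and 47.1 CPM in PF-WT and 426 and 304 CPM in PF-TF (3.55 ± 0.47, adjusted p = 0.0411) while Hspa8 was at 459 and 1299.7 CPM in PF-WT and 856 and 681 CPM in PF-TF with overlapping groups (-0.19, adjusted p = 0.826). The pseudogene took 3.19 and 3.49% of the pair's CPM in PF-WT and 33.2 and 30.8% in PF-TF. Gm14292, a processed pseudogene of the mRNA methylation subunit gene Wtap (99.3% identity over 456 bases), took 4.42 and 6.404% and 20.3 and 22.3%. Gm6969, a pseudogene of the respiratory chain gene Cox7a2l (no mismatch over its 201 aligned bases), took 3.63 and 3.41% and 17.6 and 15.3%. For these 3 pairs too, the share of the copy was higher in every TF library than in every WT library of both stages. A called copy that was lower, Gm10123 of the cyclophilin gene Ppia, had a steady share of 91.3 and 93.3% in PF-WT and 92.3 and 91.9% in PF-TF, and Ppia itself was lower by a like amount (-1.25 against -1.32 on the log2 scale). How reads that match several places were counted is not given in the sources used here, and its part in these differences was not tested.

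Nlrp5-ps is the fifth copy, a pseudogene of the maternal gene Nlrp5 (MATER). It was at 0.788 and 1.66 CPM in PF-WT and 20.6 and 13.9 CPM in PF-TF (3.78 ± 0.57, adjusted p = 0.0489), while Nlrp5 was at 241 and 309.6 CPM in PF-WT and 2232 and 1211 CPM in PF-TF (2.65 ± 0.74, adjusted p = 0.0952). Copy and parent were both higher in each PF-TF follicle, though only the copy passed, and the copy took 0.326 and 0.535% of their sum in PF-WT and 0.914 and 1.14% in PF-TF. Nlrp5 stands in a list of 16 tested genes of the subcortical maternal complex and the oocyte Nlrp family, which store and organise components for the early embryo. None of the 16 was called by edgeR at the adjusted threshold. At an unadjusted p under 0.05, 9 were higher and 0 lower (all genes: 7.49% and 13.3%). DESeq2 called 2 higher, and all 16 had a log2 fold change above 0. The median was 0.85, against -0.03 over all genes, and 0.71 to 1.19 without 1 preantral library. The number higher at an unadjusted p under 0.05 was 7 without PF-WT replicate 1, 4 without PF-WT replicate 2, 2 without PF-TF replicate 1 and 7 without PF-TF replicate 2. Their summed level was 9465 and 7706 CPM in PF-WT and 24374 and 16934 CPM in PF-TF. Tle6, a core member of the complex, was at 297 and 424 CPM in PF-WT and 1481 and 993 CPM in PF-TF (adjusted p = 0.127), and Nlrp2 at 112 and 89.2 CPM in PF-WT and 319.97 and 184 CPM in PF-TF (adjusted p = 0.111).

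The zona genes lay above 0 as well, without a call. Of 6 tested zona pellucida and egg surface genes, 3 were higher at an unadjusted p under 0.05 and 0 lower, 1 was called higher by DESeq2 and 0 by edgeR, and the median was 1.40. Zp2 was at 704 and 679 CPM in PF-WT and 2869 and 2728 CPM in PF-TF (2.02 ± 0.82, adjusted p = 0.202) and Zp3 at 1208 and 952 CPM in PF-WT and 2422 and 2712 CPM in PF-TF (adjusted p = 0.428), with no overlap for either. Astl, the protease that hardens the zona after fertilisation, was at 28.6 and 47.2 CPM in PF-WT and 282 and 174 CPM in PF-TF (adjusted p = 0.0876). Of 11 oocyte-secreted factor genes, 7 lay above 0 and 4 below, with a median of 0.44. In that list 3 were higher and 1 lower at an unadjusted p under 0.05, edgeR called 0 and DESeq2 1 each way. Without PF-WT replicate 1, 0 were higher and 0 lower, and without PF-WT replicate 2, 3 and 3. Gdf9, the growth factor gene of growing oocytes, was at 669.8 and 1274 CPM in PF-WT and 2954 and 2323 CPM in PF-TF (1.44 ± 0.47, adjusted p = 0.131), and Bmp15 at 596 and 799 CPM in PF-WT and 1462 and 950.2 CPM in PF-TF (adjusted p = 0.184). Both PF-TF follicles were above both PF-WT follicles for Gdf9 and Bmp15, and the test did not pass. Fgf10, a growth factor gene of the same list, lay on the other side at 14.4 and 2.11 CPM in PF-WT and 0 and 0.401 CPM in PF-TF (adjusted p = 0.0812), with the high value in PF-WT replicate 1. Dnmt1, the maintenance DNA methyltransferase gene that oocytes store, was at 269.8 and 336 CPM in PF-WT and 958 and 671 CPM in PF-TF (1.43 ± 0.30, adjusted p = 0.0589). Patl2, an oocyte RNA-binding protein gene needed for egg maturation, was at 14.7 and 32.6 CPM in PF-WT and 145 and 88.5 CPM in PF-TF (2.30 ± 0.50, adjusted p = 0.0622).

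Other oocyte lists depended more on single libraries. Of 12 oocyte transcription factor genes 3 were higher at an unadjusted p under 0.05 and 0 lower, with a median of 0.48. Without PF-TF replicate 1, 0 were higher and the median was 0.16, and without PF-WT replicate 1 the median was 1.07. Nobox was at 146 and 196 CPM in PF-WT and 474 and 330.5 CPM in PF-TF (adjusted p = 0.232). Of 10 Obox, oogenesin and other multicopy oocyte genes, 8 had a log2 fold change below 0 and the median was -0.23. It turned to 0.49 without PF-WT replicate 1 and was -0.67 without PF-WT replicate 2. Obox2 was at 4456 and 1641 CPM in PF-WT and 1416 and 1639.6 CPM in PF-TF (adjusted p = 0.222), with the high value in PF-WT replicate 1. Of 18 meiotic cohesin and synaptonemal genes 0 were higher and 3 lower at an unadjusted p under 0.05 (0 calls by edgeR, 2 lower by DESeq2), a share near that of all genes. Of these, 9 lay above and 9 below 0, and their median of -0.14 turned to 0.23 without PF-WT replicate 1. Tex11, a recombination gene of early meiosis, was at 37.7 and 10.3 CPM in PF-WT and 5.76 and 1.305 CPM in PF-TF (adjusted p = 0.106). Mos, the kinase gene of meiotic arrest, was at 450.3 and 292 CPM in PF-WT and 589.5 and 504 CPM in PF-TF (adjusted p = 0.342).

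**Figure D3:**
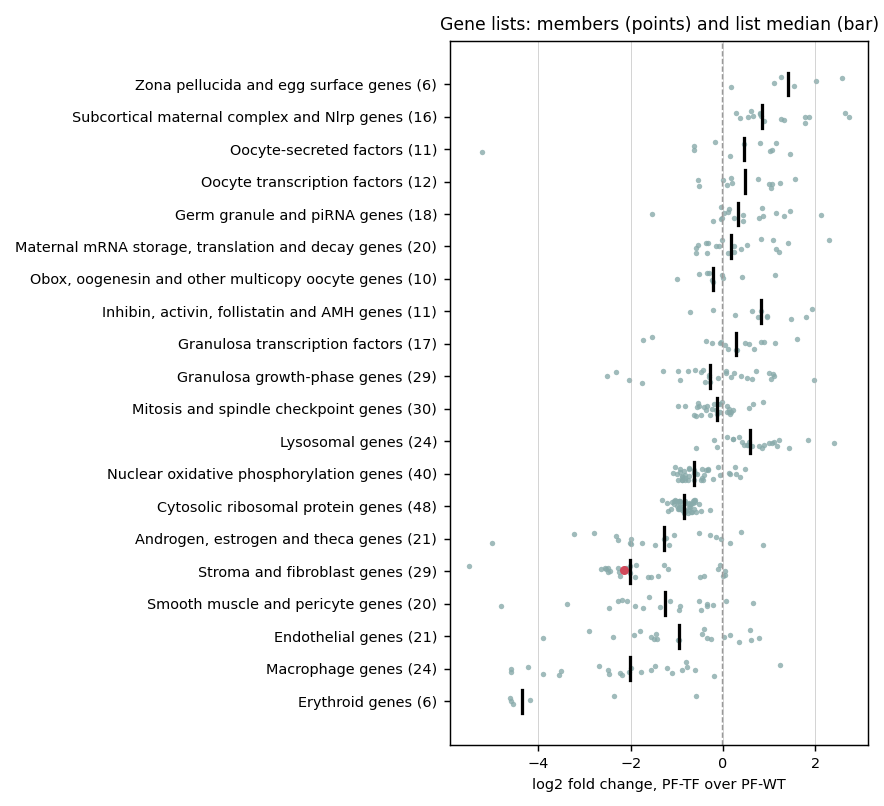
Log2 fold change of PF-TF over PF-WT for the tested members of 20 gene lists (points; number tested in brackets), with the list median as a black bar, the median of all genes as a dashed line and called genes in red. Zona, maternal complex and lysosomal genes lie mostly right of the line, and ribosomal, stromal, macrophage, erythroid, Obox and oogenesin genes mostly left of it; the only called gene shown is Mfap5.

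The genes with the largest downward changes included genes abundant in fat cells. Car3 encodes carbonic anhydrase 3. It was at 84.3 and 17.3 CPM in PF-WT and 0.111 and 0.1003 CPM in PF-TF (-8.73 ± 1.00, adjusted p = 0.0212), which is 798 counts over the PF-WT libraries against 2 over the PF-TF libraries, a ratio of 456 with a 95% counting interval from 126 to 3770. Fabp4 encodes the fatty acid binding protein of adipocytes and macrophages. It was at 57.4 and 12.8 CPM in PF-WT and 0.332 and 0.502 CPM in PF-TF (-6.33 ± 0.85, adjusted p = 0.0411). For both genes PF-WT replicate 1 was over 4 times PF-WT replicate 2, and both PF-TF follicles were under 1 CPM. Further fat cell genes were looked up after these values were seen: Cfd (adipsin) was at 25.3 and 4.77 CPM in PF-WT and 0 and 0.1003 CPM in PF-TF (adjusted p = 0.0522), Adipoq (adiponectin) at 4.86 and 0.111 CPM in PF-WT and 0 and 0 CPM in PF-TF (adjusted p = 0.118) and Retn (resistin) at 15.8 and 2.55 CPM in PF-WT and 0.111 and 1.104 CPM in PF-TF (adjusted p = 0.0799). PF-WT replicate 1 was the highest library for each of the 3. Lpl and Cd36, which fat cells share with other tissues, overlapped between groups (0.02 and -0.18 on the log2 scale). The part of attached fat tissue in these differences was not tested.

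Pparg encodes the nuclear receptor PPAR-gamma, known in fat cells and also in granulosa cells of growing follicles. It was at 100.5 and 108 CPM in PF-WT and 33.6 and 40.8 CPM in PF-TF (-1.49 ± 0.23, adjusted p = 0.0489). Unlike Car3 and Fabp4 it was even between the PF-WT replicates, and both PF-TF follicles were well below them. It was the only call among 23 steroid and orphan nuclear receptor genes, whose median was -0.11. Among 22 lipid droplet and fatty acid genes Fabp4 was the only call, with 5 higher and 6 lower at an unadjusted p under 0.05 and a median of 0.05. Scd1, the stearoyl-CoA desaturase gene, was at 12.5 and 4.55 CPM in PF-WT and 1.44 and 0.301 CPM in PF-TF (adjusted p = 0.0622).

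Several other lower genes encode secreted or membrane proteins, a grouping made after their values were seen. Spp1, which encodes the secreted matrix protein osteopontin, was at 15.2 and 6.55 CPM in PF-WT and 0.111 and 0 CPM in PF-TF (-7.34 ± 1.01, adjusted p = 0.0416); 1 count in PF-TF against 175 in PF-WT gave a ratio of 200 with a 95% counting interval from 35.4 to 7941. Mfap5, a microfibril protein gene of fibroblasts, was at 14.4 and 8.101 CPM in PF-WT and 2.104 and 2.91 CPM in PF-TF (-2.15 ± 0.34, adjusted p = 0.0494). Cav2, a caveolin gene, was at 18.5 and 9.0998 CPM in PF-WT and 0.775 and 1.104 CPM in PF-TF (-3.84 ± 0.46, adjusted p = 0.0238). In each of the 3 both PF-TF follicles were below both PF-WT follicles. Igfbp7, a secreted protein that binds insulin-like growth factors, was at 111 and 105 CPM in PF-WT and 40.4 and 28.2 CPM in PF-TF (-1.66 ± 0.26, adjusted p = 0.0489) with close PF-WT replicates. Tmem100, a membrane protein gene linked to BMP signalling, was at 40.3 and 48.3 CPM in PF-WT and 10.5 and 6.82 CPM in PF-TF (-2.35 ± 0.26, adjusted p = 0.0212), with both PF-TF follicles below both PF-WT follicles. The lists of collagen and basement membrane genes held 0 edgeR calls. Of 14 collagen genes, 1 was higher and 5 lower at an unadjusted p under 0.05 with a median of -0.64, and without PF-WT replicate 1, 0 and 0. The 22 basement membrane genes had a median of 0.33. Igfbp7 was the only call among 16 insulin-like growth factor genes; Igf1, the ligand that granulosa cells make, was at 266 and 419 CPM in PF-WT and 89.7 and 125 CPM in PF-TF (-1.68 ± 0.36, adjusted p = 0.0622).

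Ctgf and Fos are genes that respond to signals and to handling. Ctgf, a secreted matricellular protein and a target of the Hippo effector YAP, was at 48.3 and 31.3 CPM in PF-WT and 6.53 and 3.01 CPM in PF-TF (-3.06 ± 0.42, adjusted p = 0.0416). Fos, a subunit of the AP-1 transcription factor, was at 8.54 and 3.88 CPM in PF-WT and 0.111 and 0.301 CPM in PF-TF (-4.79 ± 0.73, adjusted p = 0.0489). Both were lower in each PF-TF follicle than in each PF-WT follicle. Of 21 immediate early genes these 2 were called, and 3 were higher and 5 lower at an unadjusted p under 0.05. Ier2 lay on the other side, at 6.43 and 8.101 CPM in PF-WT and 23.6 and 29.9 CPM in PF-TF (1.88 ± 0.33, adjusted p = 0.05796). Of 18 Hippo genes and YAP targets Ctgf was the only call, and the median was -0.28; Amotl2 was at 15.5 and 8.21 CPM in PF-WT and 2.44 and 5.22 CPM in PF-TF (adjusted p = 0.111).

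Arrdc3 encodes an arrestin-domain adaptor for receptor trafficking. It was at 182 and 219 CPM in PF-WT and 17.1 and 34.5 CPM in PF-TF (-2.96 ± 0.34, adjusted p = 0.0212), which is high expression in both PF-WT follicles and low in both PF-TF follicles. Fkbp11 encodes a prolyl isomerase of the endoplasmic reticulum. It was at 41.2 and 69.2 CPM in PF-WT and 7.42 and 10.3 CPM in PF-TF (-2.63 ± 0.34, adjusted p = 0.0356). Bex1, a small X-linked adaptor gene of neural and endocrine tissue, was at 73.3 and 61.04 CPM in PF-WT and 17.3 and 24.8 CPM in PF-TF (-1.67 ± 0.26, adjusted p = 0.0489). Its relative Bex4 was at 1177 and 999.99 CPM in PF-WT and 204 and 323 CPM in PF-TF (adjusted p = 0.05796), lower in both PF-TF follicles though short of the threshold. Tceal8, of the neighbouring Tceal family, passed at 380.1 and 442 CPM in PF-WT and 175 and 178 CPM in PF-TF (-1.22).

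The remaining lower genes are named after their values were seen. Hoxd10 had 23 counts in PF-WT and 0 in PF-TF, at least 4.45-fold lower against the floor of 3 counts per library. 3830403N18Rik was at 10.5 and 3.33 CPM in PF-WT and 0 and 0 CPM in PF-TF, at least 21.8-fold lower, and at least 10.5-fold lower without PF-WT replicate 1, in which it was highest. Cbr2, a carbonyl reductase gene, had 40 counts and 1 count, a ratio of 45.7 with an interval from 7.74 to 1849. Rassf4 was at 6.697 and 6.104 CPM in PF-WT and 0.443 and 0.502 CPM in PF-TF (-3.72 ± 0.53). The others were abundant genes with changes of about 1 to 2 on the log2 scale. They were Rps18, 2810417H13Rik, the cold-shock RNA-binding protein gene Rbm3 (-1.39), Gm10123, Nme2 (-1.28), Myl12a (-1.20), Rpl36al (-1.18), the thioredoxin gene Txn1 (-1.16) and the telomerase and snoRNP protein gene Nhp2 (-1.10). 2810417H13Rik, which encodes the PCNA-associated factor of replicating cells, was at 276 and 370.3 CPM in PF-WT and 82.5 and 78.2 CPM in PF-TF (-2.01 ± 0.30, adjusted p = 0.0475). Nme1, the near relative of Nme2, was at 322 and 424 CPM in PF-WT and 179 and 185 CPM in PF-TF (adjusted p = 0.05796). The split of reads between Nme1 and Nme2 was not tested.

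Hoxd10 belongs to 18 tested Hox genes with a median of -1.91, of which 1 was called lower, 6 were lower and 0 higher at an unadjusted p under 0.05. Hox genes mark position along the body axis, and which cells of a follicle library expressed them was not tested. Hoxd8 was at 11.7 and 26.1 CPM in PF-WT and 1.88 and 4.11 CPM in PF-TF (-2.64 ± 0.48, adjusted p = 0.05796) and Hoxd3 at 2.76 and 8.54 CPM in PF-WT and 0.886 and 0.502 CPM in PF-TF (adjusted p = 0.05796). For these 2 genes PF-WT replicate 2 was the highest library, where for the fat cell genes it was PF-WT replicate 1. Without 1 preantral library the median stayed between -2.41 and -1.39.

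Of the markers of cells around the follicle, the sums for stroma, smooth muscle, macrophages, erythroid cells and surface epithelium were lower in both PF-TF libraries and uneven within PF-WT, while the theca sum was higher. The 6 theca markers summed to 712 and 1012 CPM in PF-WT and 1627 and 2891 CPM in PF-TF, most of it from Hsd3b1, which granulosa cells can also express. Without Hsd3b1 the remaining theca markers together lay lower in both PF-TF libraries, among them Cyp17a1 and Insl3. The 29 tested stroma and fibroblast genes had a median of -2.01; 1 (Mfap5) was called, and 18 were lower and 0 higher at an unadjusted p under 0.05. Dcn, the collagen-binding proteoglycan decorin, was at 91.7 and 50.3 CPM in PF-WT and 7.31 and 16.96 CPM in PF-TF (-2.54 ± 0.41, adjusted p = 0.0519), and Ogn, osteoglycin, at 149.7 and 55.3 CPM in PF-WT and 7.86 and 28.2 CPM in PF-TF (adjusted p = 0.0732). The 8 defining stroma markers summed to 491 and 203 CPM in PF-WT and 44.7 and 112 CPM in PF-TF. None of 24 macrophage genes was called by edgeR; 12 were lower and 0 higher at an unadjusted p under 0.05, DESeq2 called 8 lower, and the median was -2.02. Lyz2, a lysozyme gene of macrophages, was at 393 and 61.1 CPM in PF-WT and 15.8 and 2.91 CPM in PF-TF (adjusted p = 0.05796), while C1qa was at 6.83 and 0.666 CPM in PF-WT and 6.09 and 0.401 CPM in PF-TF with overlapping groups. The 6 defining macrophage markers summed to 37.7 and 10.7 CPM in PF-WT and 9.97 and 3.91 CPM in PF-TF.

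Erythroid genes had the lowest median of the marker lists. Hba-a1, an alpha globin gene, was at 1926 and 662 CPM in PF-WT and 2.66 and 108 CPM in PF-TF (-4.54 ± 1.20, adjusted p = 0.0845), and Hbb-bs, a beta globin gene, at 1843 and 727 CPM in PF-WT and 4.098 and 138 CPM in PF-TF (adjusted p = 0.0934). The PF-TF replicates themselves stood far apart, with replicate 1 nearly free of globin RNA. All 6 tested erythroid genes were below 0 with a median of -4.36, 5 of them at an unadjusted p under 0.05; edgeR called 0 and DESeq2 5. For smooth muscle and pericyte genes the median was -1.26 over 20 tested, with 0 edgeR calls, 6 lower at an unadjusted p under 0.05 (12 without PF-TF replicate 2) and 6 lower by DESeq2. Acta2, smooth muscle actin, was at 297 and 95.4 CPM in PF-WT and 24.5 and 45.96 CPM in PF-TF (adjusted p = 0.05796) and Tagln at 197 and 43.5 CPM in PF-WT and 6.09 and 16.8 CPM in PF-TF (adjusted p = 0.05796). The 6 endothelial markers were low in all 4 libraries, at 26.4 and 21.4 CPM in PF-WT and 16.1 and 18.7 CPM in PF-TF. The 5 surface epithelium markers summed to 36.4 and 8.66 CPM in PF-WT and 0.665 and 4.01 CPM in PF-TF. The wider list of 18 surface epithelium genes overlapped between groups, at 224 and 209 CPM in PF-WT and 248 and 198 CPM in PF-TF. Its median of -0.35 turned to 0.07 without PF-WT replicate 1.

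**Figure D4:**
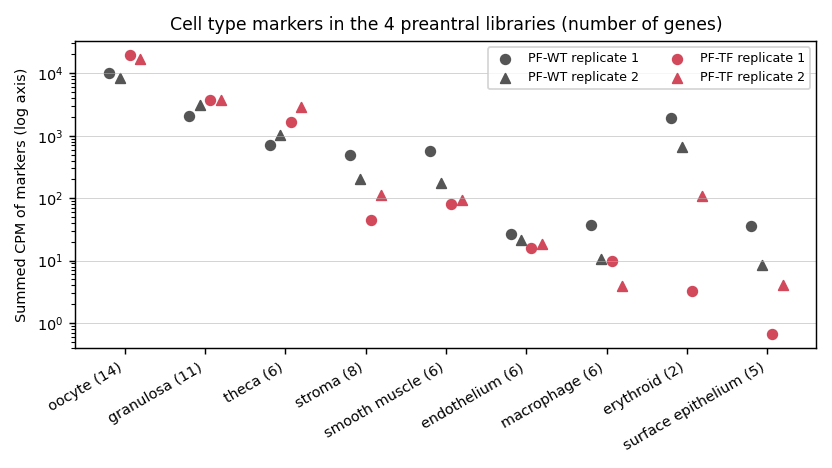
Summed normalised read counts (CPM, log axis) of the marker genes of each cell type in the 4 preantral libraries, with luteal markers left out. Circles are replicate 1 and triangles replicate 2, grey PF-WT and red PF-TF, with the number of genes in brackets. Oocyte markers run from 8254 CPM in PF-WT replicate 2 to 19803 CPM in PF-TF replicate 1, and erythroid markers from 3.32 CPM in PF-TF replicate 1 to 1935 CPM in PF-WT replicate 1.

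PF-WT replicate 1 had the highest sums of stroma, smooth muscle, macrophage, erythroid and surface epithelium markers. Across the macrophage list its level was a median of 1.64 above PF-WT replicate 2 on the log2 scale, and across the stroma list 1.05. Without PF-WT replicate 1 the medians of PF-TF over PF-WT were -0.79 for stroma, -0.50 for macrophages, -0.61 for smooth muscle and -3.39 for erythroid genes. The number of stroma genes lower at an unadjusted p under 0.05 was then 7 instead of 18, and of macrophage genes 3 instead of 12. The part of surrounding tissue in the called matrix and fat cell genes was not tested.

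Granulosa genes held no call. Of 29 granulosa growth-phase genes, 17 granulosa transcription factors and 11 inhibin, activin, follistatin and AMH genes, edgeR called 0. At an unadjusted p under 0.05 the growth-phase genes had 2 higher and 4 lower, the transcription factors 4 and 1, and the inhibin group 2 and 0. Over all genes 7.49% were higher and 13.3% lower, which is near the shares of the growth-phase genes. DESeq2 called 1 and 3, 2 and 1, and 1 and 0 in the same order (all genes: 1.83% and 5.6%). For the growth-phase genes the unadjusted numbers were 8 and 5 without PF-WT replicate 2, and 1 and 9 without PF-TF replicate 2. Fshr, the receptor for follicle-stimulating hormone, was at 29.3 and 21.9 CPM in PF-WT and 27.9 and 29.4 CPM in PF-TF (0.17 ± 0.39), and Foxl2, the transcription factor that maintains granulosa identity, at 17.5 and 27.5 CPM in PF-WT and 38.1 and 33.7 CPM in PF-TF (0.67 ± 0.29, adjusted p = 0.2205). Amh, anti-Müllerian hormone, was at 4.86 and 40.9 CPM in PF-WT and 49.7 and 27.5 CPM in PF-TF. The groups overlapped, and PF-WT replicate 1 was the lowest library. Without it the log2 fold change of Amh was -0.027. Inha, the inhibin alpha subunit, was at 1272 and 2387 CPM in PF-WT and 2895 and 2723 CPM in PF-TF (adjusted p = 0.275), and Kitl, the granulosa ligand for the oocyte receptor KIT, at 38.7 and 118 CPM in PF-WT and 176 and 140.3 CPM in PF-TF (adjusted p = 0.213). Kit itself was at 49.2 and 41.8 CPM in PF-WT and 89.6 and 80.2 CPM in PF-TF (adjusted p = 0.187). Grb14, an adaptor of the insulin receptor in the growth-phase list, was lower in each PF-TF follicle without a call, at 630.3 and 400.1 CPM in PF-WT and 27.4 and 152 CPM in PF-TF (adjusted p = 0.0744).

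Steroid pathway genes went different ways by step. Hsd3b1, which makes progesterone from pregnenolone, was at 617 and 945 CPM in PF-WT and 1609 and 2851 CPM in PF-TF (1.51 ± 0.32, adjusted p = 0.0588). Cyp11a1, the cholesterol side-chain cleavage enzyme, was at 65.4 and 31.4 CPM in PF-WT and 6.76 and 13.2 CPM in PF-TF (-2.27 ± 0.54, adjusted p = 0.07302). Cyp19a1, the aromatase gene, was at 40.4 and 11.5 CPM in PF-WT and 3.43 and 6.92 CPM in PF-TF (adjusted p = 0.101) and Cyp17a1, of the theca, at 12.1 and 5.105 CPM in PF-WT and 1.88 and 3.11 CPM in PF-TF (adjusted p = 0.0909). None of the 4 passed the threshold. Their values did not overlap between sources, which does not stand in for the test. Over the 21 tested androgen, estrogen and theca genes the median was -1.28, with 12 lower and 0 higher at an unadjusted p under 0.05, 0 edgeR calls and 9 lower by DESeq2. The number lower was 5 without PF-WT replicate 1, 13 without PF-WT replicate 2, 9 without PF-TF replicate 1 and 12 without PF-TF replicate 2. Insl3, the theca hormone gene, was at 25.9 and 5.55 CPM in PF-WT and 0.222 and 3.01 CPM in PF-TF (adjusted p = 0.101).

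Ribosomal protein genes, which build the protein synthesis machinery, lay uniformly lower. All 48 cytosolic ribosomal protein genes had a log2 fold change below 0, from -1.32 to -0.29 with a median of -0.84. None of the 48 was called by edgeR; 46 were lower at an unadjusted p under 0.05 against 13.3% of all genes, and DESeq2 called 36 lower. Their summed level was 27407 and 24315 CPM in PF-WT and 14354 and 15816 CPM in PF-TF, and the groups did not overlap. Without 1 preantral library the median was -0.97 to -0.70. In small antral follicles, where source and deposited table are tied in the same way, the median of the same genes was -0.93. Rps18, whose reads were split with Gm10260 differently by source and table, is not among the 48. The part of such splits in the values of the 48 was not tested.

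Nuclear genes of oxidative phosphorylation were lower too, with a median of -0.62 over 40 tested, 0 edgeR calls, 25 lower and 0 higher at an unadjusted p under 0.05, and 16 lower by DESeq2. Without PF-TF replicate 1 the number lower was 13. Ndufa4, a cytochrome oxidase associated subunit, was at 578 and 502 CPM in PF-WT and 276 and 308 CPM in PF-TF (adjusted p = 0.05796). The 13 protein-coding genes of the mitochondrial genome had a median of -0.02, 0 calls by edgeR or DESeq2 and 0 at an unadjusted p under 0.05. Lysosomal genes leaned the other way: 9 of 24 were higher and 0 lower at an unadjusted p under 0.05 (all genes: 7.49% and 13.3%). Of these 24, edgeR called 0 and DESeq2 6 higher, and the median was 0.59. Psap, the prosaposin gene, was at 6.96 and 16.6 CPM in PF-WT and 32.7 and 51.8 CPM in PF-TF (adjusted p = 0.0937) and Ctsh, a cathepsin gene, at 80.5 and 99.3 CPM in PF-WT and 171 and 161 CPM in PF-TF (adjusted p = 0.07804). Without 1 preantral library between 7 and 10 lysosomal genes were higher at an unadjusted p under 0.05.

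Cell cycle lists had medians near 0. For 30 mitosis and spindle checkpoint genes the median was -0.14, with 1 higher and 4 lower at an unadjusted p under 0.05 (all genes: 7.49% and 13.3%). For 30 replication genes the median was -0.15, with 0 higher and 7 lower. EdgeR called 0 of either, and DESeq2 1 and 2 lower. The replication list turned to a median of 0.26 without PF-WT replicate 2 and 0.08 without PF-TF replicate 2. Top2a, the topoisomerase of dividing cells, was at 176 and 229 CPM in PF-WT and 106 and 122 CPM in PF-TF (adjusted p = 0.133) and Rfc4, a clamp loader subunit, at 184 and 219.7 CPM in PF-WT and 91.7 and 90.9 CPM in PF-TF (adjusted p = 0.05796). Several metabolic and stress lists had medians near 0 but more lower than higher genes at an unadjusted p under 0.05. The numbers higher and lower were 1 and 6 of 23 glycolysis genes, 1 and 5 of 18 hypoxia genes and 1 and 4 of 15 heat shock genes. They were 2 and 7 of 25 antioxidant genes, and 1 and 1 of 22 ER chaperone genes. Ldha, the lactate dehydrogenase A gene, was at 247 and 348 CPM in PF-WT and 142 and 119.8 CPM in PF-TF (-1.18 ± 0.22, adjusted p = 0.05796), while Ldhb, the form that prevails in oocytes, was at 1542 and 2224 CPM in PF-WT and 5523 and 4349 CPM in PF-TF (1.39 ± 0.28, adjusted p = 0.05796). Among 25 antioxidant genes Txn1 was the only call, and Gpx1 was at 704 and 525 CPM in PF-WT and 281 and 338 CPM in PF-TF (adjusted p = 0.05796).

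The same source difference was measured in small antral follicles, which share no library with the preantral comparison. There 1785 genes passed the threshold (9.96%), 827 higher (4.61%) and 958 lower (5.34%) in SAF-TF. Of the 39 preantral genes, 28 had the same sign at the small antral stage, and 19 were also called there, 15 in the same and 4 in the opposite direction. The same-sign share over all genes was not counted, so 28 is no measure of agreement between stages. Among the 28 are Gm10260, Gm15459, Gm14292, Gm6969 and Rps18. Tmem100 was at 984 and 830.4 CPM (SAF-WT) against 54.7 and 65.9 CPM (SAF-TF) (-3.91 ± 0.26, adjusted p = 1.11e-04) and Mfap5 at 771 and 584 CPM (SAF-WT) against 57.2 and 52.9 CPM (SAF-TF) (-3.62 ± 0.30, adjusted p = 3.58e-04), so both were lower in follicles from transplanted cells at both stages. 2810417H13Rik and Rps18 fell at both stages, with log2 fold changes in small antral follicles of -2.07 ± 0.30 and -2.08 ± 0.20. Gm10260, Gm15459, Gm14292, Gm6969 and H2-T22 were higher and passed at both stages. The shares of these Gm copies against their parent genes, among them Rps18, followed source and deposited table at both stages. Across all genes tested the preantral and small antral log2 fold changes had a Pearson correlation of 0.13 and a Spearman correlation of 0.28, a description over genes of the same 8 libraries.

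**Figure D5:**
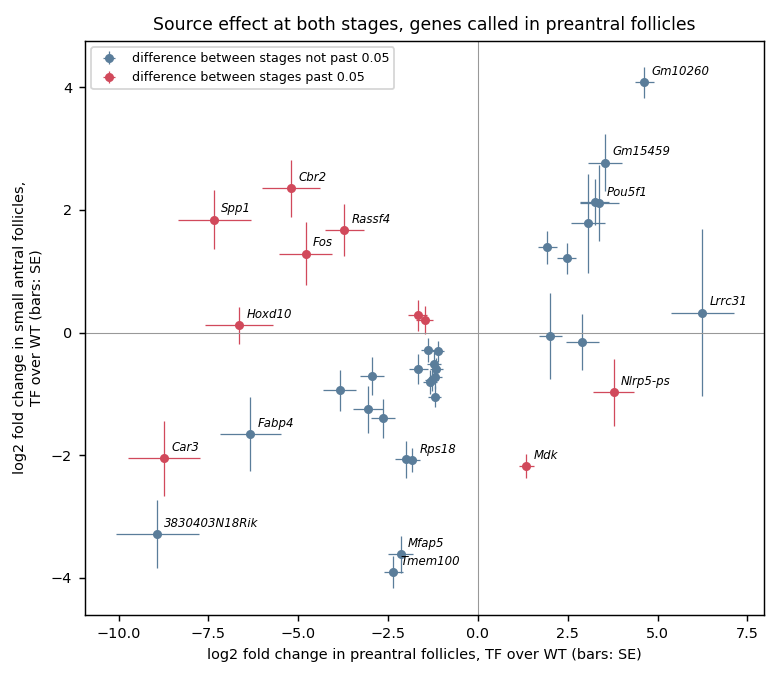
Log2 fold change of TF over WT in preantral (x axis) and small antral follicles (y axis) for the 39 genes called in preantral follicles, with standard errors as bars. Red points are the 10 genes whose difference between stages passed the threshold; Spp1, Cbr2, Rassf4 and Fos lie at the upper left and Mdk at the lower right.

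The difference between the stages itself passed the threshold for 162 of 17925 genes (0.904%), 44 with a more positive source difference in preantral follicles (0.245%) and 118 with a more negative one (0.658%). Of the 39 genes, 10 were among them. Mdk was higher in PF-TF but lower in SAF-TF, at 335 and 361 CPM (SAF-WT) against 83.04 and 70.7 CPM (SAF-TF) (-2.18 ± 0.20), and the difference between stages was 3.53 ± 0.28 (adjusted p = 0.00133). Spp1 was lower in PF-TF but higher in SAF-TF, at 33.96 and 76.2 CPM (SAF-WT) against 254 and 141 CPM (SAF-TF) (1.84 ± 0.48), a difference of -9.18 ± 1.13 (adjusted p = 0.009601). Cbr2 and Rassf4 turned direction in the same way, with SAF-TF over SAF-WT at 2.35 ± 0.47 and 1.67 ± 0.43. Car3 had a log2 fold change of -2.05 ± 0.61 in small antral follicles (adjusted p = 0.06196), and the difference between stages was -6.68 ± 1.23 (adjusted p = 0.0409). Pparg and Bex1, lower in PF-TF, were close to 0 in small antral follicles (0.21 ± 0.23 and 0.28 ± 0.25). These 2 differences between stages stood near the threshold (adjusted p = 0.0477 and adjusted p = 0.03997). Of the oocyte genes, Ddx4 was at 6.77 and 16.7 CPM (SAF-WT) against 3.74 and 2.48 CPM (SAF-TF), on the opposite side to preantral follicles, and its difference between stages was 4.64 ± 0.75 (adjusted p = 0.0269) although neither stage passed alone. Oocyte lists with preantral medians above 0 had small antral medians below 0. These were -1.54 for zona, -0.73 for maternal complex and Nlrp, -0.96 for oocyte-secreted and -1.34 for oocyte transcription factor genes. Summed oocyte markers were at 749 and 3518 CPM (SAF-WT) against 552 and 289 CPM (SAF-TF), highest in SAF-WT replicate 2. List differences between stages were not tested.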

How the data were processed

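RNA of 8 single follicles was sequenced. Per the submitters' processing notes, alignment used HISAT2 2.0.1 and GRCm38; the counter, annotation and strand setting are not stated there. The authors deposited raw counts per gene and library, 1 table per source. The deposited group signal, the log2 ratio of stages and the p-value (FDR) columns of the authors were not used. Tables were joined on gene symbol (21997 shared genes; 132 listed only for TF and 141 only for WT left out). Genes were kept by filterByExpr (minimum count 10, minimum total 15). A quasi-likelihood test in edgeR 4.0.16 under R 4.3.3 (TMM factors, 4 group means, 4 residual degrees of freedom, common biological coefficient of variation 0.303) gave source differences per stage and their interaction, with Benjamini-Hochberg adjustment over 17925 genes. DESeq2 1.42.0, other scalings and filters, a replicate block, left-out libraries and a GC content and length correction (mgcv) were alternatives. Scripts were tested on simulated data. Transcript identity came from blastn 2.17.0 on GENCODE M21 transcripts, promoters from RefSeq. Total counts of all libraries ran from 7656108 to 9805287, so 3 counts is 0.301 to 0.394 CPM.

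Named genes were the 12 largest changes per direction past the threshold with no overlap and 10 CPM or more as the mean of the higher group (predicted genes, ribosomal protein genes and numbered pseudogenes left out), the 4 smallest p-values per list, and cell type markers; 8 higher genes met the first part. The members and lists were chosen with earlier results of these data known.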

Additional observations from a re-analysis of the deposited data

Results flagged for a closer look

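The source difference was not the same in preantral and small antral follicles for the genes below, by the edgeR interaction test at an adjusted p under 0.05; each value is the preantral minus the small antral log2 fold change. It was more positive in preantral follicles for Nr2f1 (5.94), Nlrp5-ps (4.76), Ddx4 (4.64), Mdk (3.53) and Wtap (1.77). It was more negative for the lower genes Spp1 (-9.18), Cbr2 (-7.55), Hoxd10 (-6.75), Car3 (-6.68), Fos (-6.08), Rassf4 (-5.39), Bex1 (-1.95) and Pparg (-1.69). Among genes that were not called in preantral follicles it was also more negative for Igkc (-11.92), Cyp11a1 (-7.24), H2-Ab1 (-5.77) and Ldha (-1.65).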

How the results depend on the processing

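Counts of genes higher and lower in PF-TF were 12 and 27. They were 9 and 17 with DESeq2-type RLE size factors in edgeR, 6 and 10 with total counts, 36 and 171 without the low-count filter, 8 and 20 above 10 CPM, 316 and 965 with DESeq2, 2 and 1 in the 4 preantral libraries alone, and 18 and 28 with the GC content and length correction. Leaving out 1 library gave 1 to 231 higher and 0 to 634 lower. The size factor alternatives moved the median log2 fold change of all genes from -0.03 to -0.04 (RLE) and 0.05 (total counts). The interaction counts, 44 more positive and 118 more negative, became 328 and 482 with DESeq2 and 74 and 138 with the GC content and length correction, and ran from 4 to 83 and from 19 to 208 when 1 library was left out. The cause of these shifts was not tested.

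Replicate numbers do not tie follicles across groups in the labels, and same-numbered PF-WT and PF-TF libraries deviated with a correlation of -0.133. The replicate block gave 2 higher and 4 lower, and 12 and 62 for the interaction. In the 4 preantral libraries alone the block gave 1 and 2, and crossed replicate numbers gave 176 and 258, alternatives chosen after seeing the data.

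None of the 39 called genes changed direction under any alternative, and their calls were lost in 348 of 623 gene-by-setting values, leaving aside the 2 block fits within the preantral libraries. For left-out libraries the kept direction of the 39 was largely set beforehand, since their PF-TF and PF-WT values did not overlap. The 77 named genes that were not called kept their side of the threshold in most refits. Those whose sign changed were near 0 or overlapped between groups. When 1 library was left out, the log2 fold change of these genes ran over Amh -0.027 to 2.99, C1qa -3.19 to 2.30, Cd36 -0.56 to 0.39, Dppa3 -0.33 to 0.55, Fshr -0.031 to 0.45, H2-T10 -0.10 to 0.34, Hspa8 -0.70 to 0.74, Lpl -0.34 to 0.29, Nr5a1 -0.19 to 0.16 and Nr5a2 -0.41 to 0.45. Sign changes in other settings were, for the GC content and length correction, Cd36 (0.058) and H2-T10 (-0.047), for RLE factors and DESeq2 Dppa3 (-0.0152 and -0.0153), and for total counts Nr5a1 (0.016).

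Depth limits what a count of 0 can show to the 3-count floor, and 2 follicles per group limit every test.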

Other observations

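Interferon-stimulated genes, 32 tested, held 0 edgeR calls, with 5 lower by DESeq2 and a median of -0.29. At an unadjusted p under 0.05, 3 were higher and 10 lower (all genes: 7.49% and 13.3%). Without PF-WT replicate 1 the number lower was 5. Ifitm3, an antiviral membrane protein gene, was at 123 and 63.9 CPM in PF-WT and 34.1 and 43.6 CPM in PF-TF, with both PF-TF follicles below both PF-WT follicles. Genes of MHC class II, 10 tested, had a median of -1.35 that became 0.03 without PF-WT replicate 1, and 2 of them split: H2-Aa was at 19.7 and 6.99 CPM in PF-WT and 39.3 and 48.7 CPM in PF-TF, above in both PF-TF follicles, and H2-Ab1 at 7.22 and 3.66 CPM in PF-WT and 1.22 and 1.305 CPM in PF-TF, below in both. Igkc, an immunoglobulin light chain gene of B cells, had 89 counts in PF-WT, nearly all in replicate 1, and 0 in PF-TF, at least 18.2-fold lower against 3 counts per library, and at least 2.45-fold lower without PF-WT replicate 1. Of 22 basement membrane genes 3 were higher and 4 lower at an unadjusted p under 0.05, with 0 edgeR calls and 2 each way by DESeq2; Nid1, nidogen 1, was at 21.5 and 10.1 CPM in PF-WT and 1.77 and 3.81 CPM in PF-TF and Col18a1 at 1.71 and 6.99 CPM in PF-WT and 36.4 and 30.1 CPM in PF-TF. Clu, which encodes the chaperone clusterin, was at 193 and 505 CPM in PF-WT and 1094 and 1296 CPM in PF-TF (log2 fold change 1.78 ± 0.38). These genes did not pass the adjusted threshold.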
